A study of Mus musculus with 39 samples.

Results

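The microRNA precursor loci described here are the rows of the expression tables whose gene symbol begins with Mir and a digit, or with Mirlet7, and does not end in hg. Each row stands for the hairpin of a microRNA gene. The rule found 170 such rows among the 13230 rows that both gradients hold, with 249 in gradient 1, 256 in gradient 2 and 335 in either. RNA was sequenced from fractions of 2 sucrose gradients, each loaded with liver of a wild-type FVB mouse, a common inbred strain, and the livers were from females. The tissue was homogenized with beads in buffer without detergent, nuclei were spun out, and the homogenate was spun through 10–50% sucrose. No mutant, treated or other control group was part of these data, so the comparisons are between fractions. Gradient 1 gave 17 libraries, of fractions 4 to 19 and 21, and gradient 2 gave 22, of fractions 3 to 24, with higher numbers denser. Each fraction has 1 library in a gradient, so the gradients are the only replicates (n = 2) and neighboring fractions of a gradient are not replicates. Values are TPM, the share of a library's transcripts that a row takes after division by its length, scaled to the same total in every library. A higher TPM can come from more of that RNA in a fraction or from less of other RNAs, and these cannot be told apart.

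A microRNA is transcribed as part of a longer RNA that folds into a hairpin. In the nucleus Drosha and Dgcr8 cut the hairpin free, Xpo5 carries it to the cytoplasm, and Dicer1 cuts it to the mature microRNA, which an Argonaute protein holds and uses to silence matching mRNAs through its seed. Many hairpins lie in introns or exons of other genes, called host genes, and hepatocytes are known for miR-122, miR-192 and miR-194. A mature microRNA is much shorter than the RNA fragments that libraries of this kind are usually made from. A row's value therefore counts fragments that hold hairpin sequence, whether from the precursor, its primary transcript or a host RNA, and says nothing on the mature microRNA.

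The mature sequences of the microRNAs that the results turn on are printed from RefSeq, 5′ to 3′, with the seed (bases 2 to 8) in capitals. A mature sequence was matched for 148 of the 170 rows, on GRCm38.p6. The first set belongs to the 6 rows of the highest mean TPM and to Mir3473f, the row with the second largest fall from the light to the dense fractions among the rows called in the test described further on. No seed of this set was found in another of the 170 rows.
mmu-miR-6516-5p: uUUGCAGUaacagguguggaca
mmu-miR-6516-3p: uCAUGUAUgauacugcaaacag
mmu-miR-568: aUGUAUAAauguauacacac
mmu-miR-3113-3p: uCCUGGCCcugguccugguc
mmu-miR-1191a: cAGUCUUAcuauguagcccua
mmu-miR-8112: uCUCCGCCaccuccaccgca
mmu-miR-1894-5p: cUCUCCCCuaccaccugccucu
mmu-miR-1894-3p: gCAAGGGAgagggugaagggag
mmu-miR-3473f: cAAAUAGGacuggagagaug

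The second set belongs to families whose members share a seed, and is shown so that rows with the same seed can be set beside each other. Mir192 and Mir215 share UGACCUA, the let-7 rows and Mir1961 share GAGGUAG, Mir20a, Mir93 and Mir106b share AAAGUGC, and Mir25 and Mir32 share AUUGCAC.
mmu-miR-192-5p: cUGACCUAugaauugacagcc
mmu-miR-215-5p: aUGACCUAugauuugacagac
mmu-let-7d-5p: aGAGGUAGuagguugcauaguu
mmu-let-7f-5p: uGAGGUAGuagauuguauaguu
mmu-let-7g-5p: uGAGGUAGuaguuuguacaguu
mmu-miR-1961: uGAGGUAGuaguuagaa
mmu-miR-20a-5p: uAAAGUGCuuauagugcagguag
mmu-miR-93-5p: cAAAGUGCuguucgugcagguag
mmu-miR-106b-5p: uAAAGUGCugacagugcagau
mmu-miR-25-3p: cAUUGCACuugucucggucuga
mmu-miR-32-5p: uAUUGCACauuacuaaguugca

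Most precursor rows were listed at 0 in most fractions. The 170 rows were above 0 in a median of 2 of the 17 libraries of gradient 1 and 2 of the 22 of gradient 2, while the median over all rows in both tables was 17 and 22. In gradient 1, 50 rows were above 0 in a single library, and in gradient 2, 52 were. Only Mir1191 was above 0 in every library of gradient 1, and only Mir3113 and Mir8112 in every library of gradient 2. Of the 17 fractions both gradients hold, 13 rows were above 0 in at least 9 in each gradient, and 11 rows were at 0 in all 17 in gradient 2. A single fragment is worth more TPM in a short row than in a long one. Over 167 rows with a hairpin of known length, 54 to 139 bases, the median of each row's smallest value above 0 was 6.15 TPM. Among these rows it did not fall with length, at 4.69 TPM below 70 bases, 6.26 from 70, 7.30 from 90 and 5.81 from 110 bases. TPM holds no counts, so the depth of the libraries is unknown and a row at 0 may have been missed.

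Precursor rows were detected most often, and took most TPM, in the light fractions. Between 48 and 99 of the 170 rows were above 0 in the libraries of fractions 4 to 7, apart from fraction 4 of gradient 1 with 38, and between 8 and 36 in those of fractions 16 to 19. Over all rows in both tables, 95.3% to 98.6% were above 0 in fractions 4 to 7 and 90.7% to 96.9% in fractions 16 to 19, so detection fell for all rows in the same direction and by less, and its part in the results on precursor rows was not tested. The summed TPM of the 170 rows averaged 3461 in gradient 1 and 4833 in gradient 2 over fractions 4 to 7, and 991 and 592 over fractions 16 to 19. All 8 sums of the light fractions, from 2424 upward, lay above all 8 of the dense ones, which reached 1271. Without Mir6516, the most abundant row, the light sums ran from 1343 to 3859 and still lay above the dense sums.

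**Figure D1:**
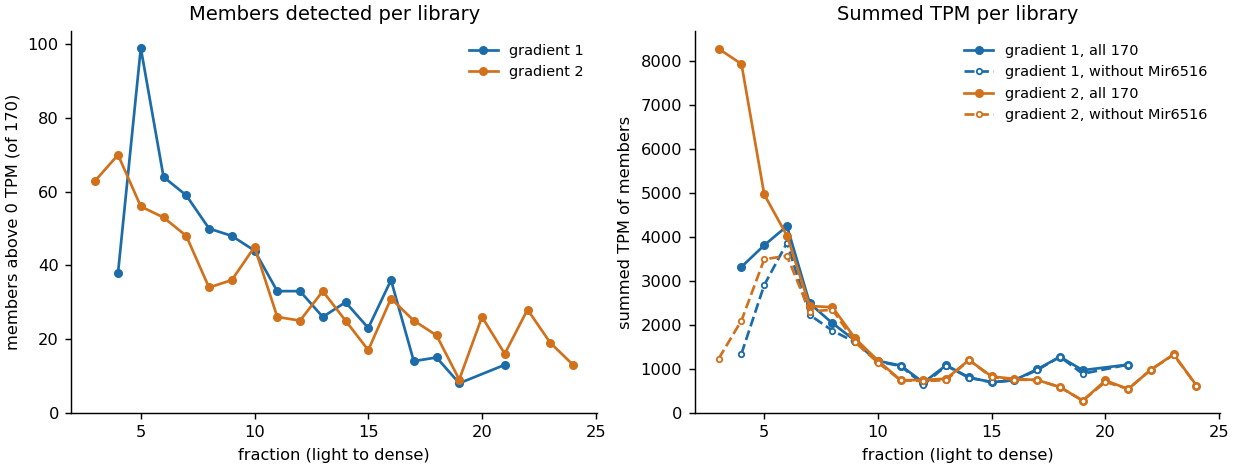
Number of the 170 precursor rows above 0 (left) and their summed TPM (right) in each library, by fraction from light to dense, for gradient 1 (blue) and gradient 2 (orange), with dashed lines that leave out Mir6516. The count falls from 99 in fraction 5 of gradient 1 to 8 in fraction 19, and most of the sum of fractions 3 and 4 of gradient 2 is Mir6516.

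The level was concentrated in few rows. Over the 34 libraries of the shared fractions, the median row had a mean of 2.51 TPM, 22 rows had at least 10 and 3 rows at least 100. The 6 highest rows held 55.7% of the summed TPM, and Mir6516 alone 20.2%. Of the 20 highest rows, 14 overlap an exon of a host gene on the same strand, although such rows make up 43 of the 170. A further 79 rows lie in introns, 45 have no host, and 3 have no single position in the annotation. The median row had 4.51 TPM in the exonic class, 2.01 in the intronic class and 2.50 without a host. A hairpin sequence was at hand for 131 rows. Of these, 37 of 38 exonic hairpins shared at least one stretch of 31 bases with another annotated gene, the host included, as did 8 of 62 intronic hairpins and 5 of 29 without a host. Fragments of such stretches cannot be assigned to the hairpin alone.

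To compare zones, each gradient's values of log2(TPM + 1) in the light fractions (4 to 7), the middle ones (10 to 13) and the dense ones (16 to 19) were reduced to a mean per zone. Differences between these means were tested in limma over all 11754 genes with a mean of at least 1 TPM, with Benjamini-Hochberg adjustment. The 6 rows of highest mean are given first, library by library.

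Mir6516 (mean 355 TPM; mm10 chr11:117077348-117077457, plus strand) overlaps an exon of the noncoding host Snhg20 and a small Cajal body RNA annotated as Gm26083, with both of which its hairpin shares 31-base stretches. Small Cajal body RNAs guide the modification of spliceosomal RNAs. Its TPM in gradient 1, from fraction 4 to 19 and then 21, was 1971, 905, 382, 260.4, 169, 34.02, 13.2, 13.1, 46.8, 12.2, 6.88, 0, 4.47, 18.03, 0, 79.7 and 0. In gradient 2, from fraction 3 to 24, it was 7038, 5829.6, 1472, 457, 124, 56.4, 89.6, 43.3, 0, 23.9, 33.8, 0, 16.6, 18.02, 0, 0, 0, 33.4, 0, 0, 13.4 and 0. Both gradients had their highest value in the lightest library, and every light-zone library (fractions 4 to 7) lay above every dense-zone library (16 to 19). The fall from the light to the dense zone was the largest of the rows tested, by 7.37 on the log2(TPM + 1) scale (SE 0.68, limma adjusted p = 0.000561, n = 2 gradients per zone).

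Mir568 (mean 233 TPM; chr16:43640655-43640737, plus strand) lies in an untranslated exon of Zbtb20, which encodes a zinc finger repressor active in liver. In gradient 1, from fraction 4 to 19 and 21, its TPM was 51.2, 442, 1050.3, 639, 266, 322, 131, 156, 83.8, 104, 89.6, 63.3, 70.6, 142, 0, 284 and 0. In gradient 2, from fraction 3 to 24, it was 163, 214, 371, 879, 476, 632, 364, 237, 62.7, 102, 82.6, 98.4, 90.8, 58.5, 169, 105, 73.9, 110.1, 19.96, 72.9, 158 and 0. Both gradients peaked in fraction 6, with a lower level through the middle and dense fractions, and the light and dense libraries overlapped. The dense zone was lower, with a difference of −2.64 on the log2(TPM + 1) scale (SE 0.39, limma adjusted p = 0.00224).

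Mir3113 (mean 156 TPM; chrX:151859562-151859637, plus strand) overlaps an exon of a noncoding transcript of Huwe1, the gene of a large ubiquitin ligase. In gradient 1, from fraction 4 to 19 and 21, its TPM was 0, 16.5, 54.6, 66.2, 66.04, 71.05, 179, 110.1, 104, 278, 182, 257, 177, 448, 352, 445 and 327. In gradient 2, from fraction 3 to 24, it was 8.36, 25.5, 13.5, 138, 88.9, 44.9, 11.9, 144, 132, 22.4, 82.03, 425, 159.5, 185, 187, 141, 117, 200.3, 236, 233, 592 and 377. It went the other way from most rows, with high values in the dense libraries, up to 592 TPM in fraction 23 of gradient 2, and low values in the lightest ones. In gradient 2 the zones overlapped, with 138 TPM in fraction 6 against 117 in fraction 19. The rise from the light to the dense zone was the largest among the rows called, at 3.06 (SE 0.64, limma adjusted p = 0.00840), being 4.39 in gradient 1 and 1.73 in gradient 2.

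Mir1191 (mean 96.5 TPM; chr7:27205536-27205655, plus strand) lies in an untranslated exon of BC024978. In gradient 1, from fraction 4 to 19 and 21, its TPM was 5.99, 273, 255, 119, 129.7, 175, 90.2, 62.5, 83.3, 40.2, 28.8, 61.8, 125, 58.1, 127, 41.2 and 5.82. In gradient 2, from fraction 3 to 24, it was 61.6, 85.6, 370.4, 152, 159.6, 39.1, 66.5, 48.3, 68.96, 182, 103, 83.3, 13.7, 105, 64.9, 26.96, 16.2, 0, 14.7, 78.98, 46.6 and 0. Fraction 5 was highest in both gradients, and later fractions varied without a common order. Its change from light to dense did not pass the test (−1.05, SE 0.42, limma adjusted p = 0.0739), with −0.14 in gradient 1 and −1.97 in gradient 2.

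Mir8112 (mean 88.2 TPM; chr6:71271671-71271801, plus strand) overlaps an untranslated exon of Krcc1 and lies opposite Smyd1 on the other strand. In gradient 1, from fraction 4 to 19 and 21, its TPM was 207, 123, 112, 128, 155, 106, 32.9, 59.3, 26.96, 24.2, 18.5, 15.1, 12.7, 48.1, 0, 32.9 and 9.69. In gradient 2, from fraction 3 to 24, it was 111, 216, 147, 233, 259.9, 354, 237, 73.8, 97.7, 38.6, 43.6, 52.1, 56.2, 16.1, 19.9, 5.65, 27.2, 20.9, 11.9, 25.3, 126 and 44.8. The level was above 100 TPM in fractions 4 to 9 of both gradients and below that in later ones, except for 126 TPM in fraction 23 of gradient 2, and all 8 light libraries lay above all 8 dense ones. The difference was −3.60 (SE 0.35, limma adjusted p = 0.000616).

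Mir1894 (mean 51.6 TPM; chr17:35917889-35917969, plus strand) overlaps an exon of a noncoding transcript of Ppp1r10, the gene of a nuclear regulator of protein phosphatase. In gradient 1, from fraction 4 to 19 and 21, its TPM was 0, 12.05, 173, 77.00, 81.6, 103, 57.3, 13.2, 13.6, 13.03, 0, 11.6, 10.8, 0, 108, 0 and 0. In gradient 2, from fraction 3 to 24, it was 47.7, 18.1, 162, 268, 156, 224, 90.5, 36.01, 32.5, 8.77, 6.92, 70.2, 0, 6.80, 0, 0, 0, 0, 0, 0, 21.8 and 0. It peaked in fraction 6 in both gradients, and a single dense library, fraction 18 of gradient 1, held 108 TPM while the other dense libraries reached at most 10.8. The change was −3.89 (SE 0.90, limma adjusted p = 0.0119), being −1.78 in gradient 1 and −6.002 in gradient 2.

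**Figure D2:**
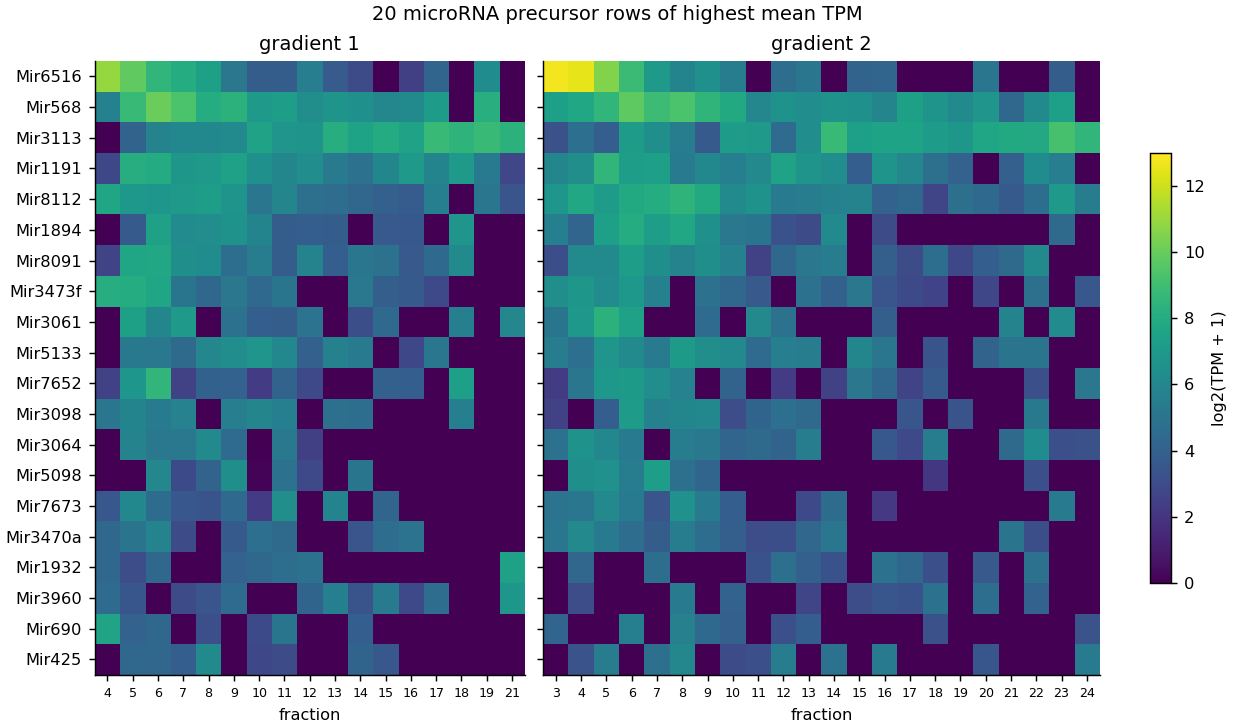
TPM of the 20 precursor rows of highest mean, as log2(TPM + 1) (color), in every fraction of gradient 1 (left) and gradient 2 (right), light fractions on the left of each panel. Most rows are brighter in the light than in the dense fractions, the darkest cells are values of 0, and Mir3113 is brighter in the dense fractions.

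The zone comparison tested 140 precursor rows and left out 30 with a lower mean. A row read in few libraries could reach the limit of 1 TPM through the zone where it was high, which then set its direction. Counts and medians over the 140 rows are therefore a description, and no difference from other genes is read from them. From light to dense, 69 of the 140 (49.3%) were lower and 4 (2.86%) higher at an adjusted p under 0.05, against 39.6% lower and 22.3% higher of all genes tested, and 73 in all (52.1%) against 61.9%. The median change was −1.19, and −0.43 over all genes. It was −1.09 in each gradient on its own, with −0.40 for all genes in each.

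Many of these calls rest on rows that were listed at 0 in a whole zone. Of the 69 lower rows, 47 were at 0 in all 8 dense libraries, while 20 were above 0 in at least 6 of the 8 light libraries and 12 in at most 2. Of the 73 called, 14 were above 0 in a single light or dense library of each gradient. Of the 140 tested, 44 were above 0 in 1 zone only, 38 of them the light zone, 5 the middle and 1 the dense, and a fold change of such a row has no meaning beyond its sign. For 20 rows that were above 0 in at least 12 of the 24 zone libraries, a limit chosen after the data were seen, 15 (75%) were lower and 1 (Mir3113) higher, against 39.5% and 22.6% of 11567 genes under the same limit. The 8 dense libraries all lay below the 8 light ones in 5 of the 140 rows, against 28.9% of all genes. These were Mir6516, Mir8112, Mir3473f, Mir7673 and Mir1946b. In no row did they all lie above, against 16.9% of all genes.

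**Figure D3:**
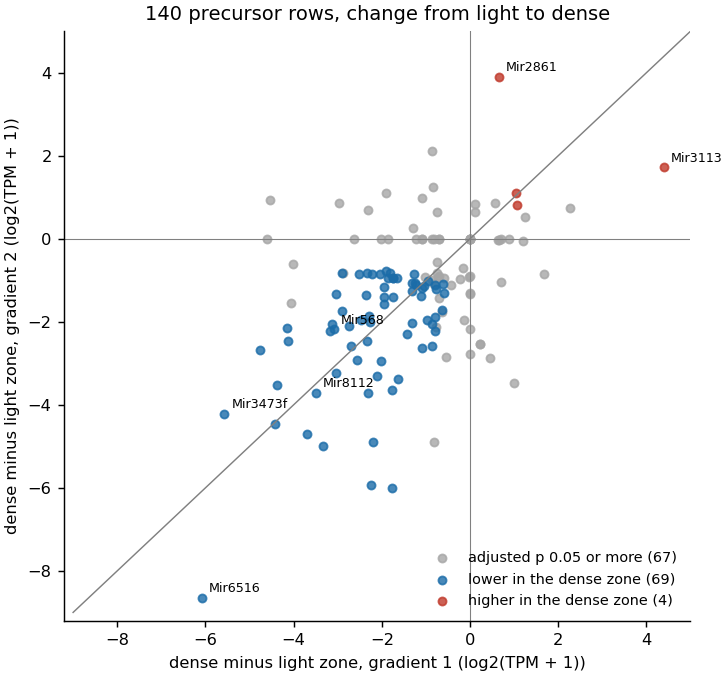
Dense minus light zone on the log2(TPM + 1) scale, in gradient 1 (x axis) and gradient 2 (y axis), for the 140 precursor rows tested, where blue and red points passed the test (adjusted p under 0.05) as lower or higher in the dense zone, gray points did not, and the diagonal marks equal change. The 69 blue points lie below 0 in both gradients, Mir6516 lowest, and 4 rows including Mir3113 and Mir2861 lie above 0 in both and passed.

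After Mir6516, the largest falls from light to dense among the rows called were of Mir3473f, Mir7673, Mir3061 and Mir3470a. Mir3473f (mean 43.2 TPM; chr1:106546496-106546631) lies in an intron of Bcl2, the gene of an inhibitor of cell death, and its hairpin shares 31-base stretches with 133 other genes, so its fragments could have come from many places. It had 272, 265, 199 and 32.2 TPM in fractions 4 to 7 of gradient 1 and 12.04, 6.21, 0 and 0 in fractions 16 to 19. In gradient 2 it had 118, 76.1, 121 and 51.05 in the light and 9.73, 6.45, 5.19 and 0 in the dense zone. The light libraries were higher throughout, and the change was −4.89 (SE 0.41, limma adjusted p = 0.000456). Mir7673, in an exon of Klhl15, fell by 4.44 (SE 0.65, limma adjusted p = 0.00217). Mir3061, in an exon of Ppp2ca, the catalytic subunit of a protein phosphatase, fell by 4.20 (SE 0.30, limma adjusted p = 0.000337). Mir3470a, without a host, fell by 4.16 (SE 0.57, limma adjusted p = 0.00177). Other rows of high level were lower by less. Mir8091 (mean 48.9 TPM), without a host, peaked in fraction 6 of both gradients and changed by −2.74 (adjusted p = 0.000399), and Mir425 (mean 12.6 TPM) peaked in fraction 8 of both and changed by −2.59 (adjusted p = 0.0130).

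Besides Mir3113, the rows called higher in the dense zone were Mir2861, Mir1981 and Mir20a. Mir2861 (mean 9.66 TPM), in an untranslated exon of Cdk9, the kinase of transcription elongation, had 0, 12.3, 0 and 0 TPM in the light and 5.51, 11.4, 0 and 0 in the dense fractions of gradient 1. In gradient 2 it had 0, 0, 0 and 0, and 64.2, 19.9, 35.7 and 0. The rise of 2.28 (SE 0.75, limma adjusted p = 0.0407) was 0.65 in gradient 1 and 3.90 in gradient 2, and with zones of fractions 4 to 6 and 17 to 19 its adjusted p was 0.134. Mir1981, in an intron of Marc2, was above 0 in 1 of the 4 dense libraries of each gradient, with 16.5 TPM in fraction 16 of gradient 1 and 19.9 in fraction 17 of gradient 2. Mir20a was above 0 in 1 library of each gradient, with 18.4 TPM in fraction 16 and 8.53 in fraction 18. The calls of Mir1981 (limma adjusted p = 0.0145) and Mir20a therefore rest on 1 library in each gradient. Mir20a was at 0 in every light and middle library, so it was tested only through the dense zone, which set its direction. With zones of fractions 4 to 6 and 17 to 19 the adjusted p of Mir1981 was 0.208, and Mir20a was no longer tested because its mean fell below 1 TPM.

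The counts for the light and middle zones are a description for the same reason. From light to middle, 55 rows (39.3%) were lower and 4 higher, against 24.1% lower and 23.5% higher of all genes, and the median change was −1.04 against 0.05. The rows called higher were Mir3113 (2.01, limma adjusted p = 0.0462), Mir5125 (1.67, adjusted p = 0.00921), Mir1945 (1.57, adjusted p = 0.0412) and Mir25. Mir25 was above 0 in fraction 11 of both gradients, at 32.2 and 24.3 TPM, and otherwise only in fraction 14 of gradient 2. It was therefore tested only through the middle zone, which set its direction. Its call rests on 1 library in each gradient, and only the sign of its change is given. The largest falls among the rows called, after Mir6516 (−5.51, adjusted p = 0.00242) and Mir3473f (−4.04) were of Mir1946b (−3.91) and Mir7652 (−3.76), in an exon of the stress granule gene G3bp1, each with an adjusted p under 0.05 in limma. Mir1192, in an intron of Klf9, was above 0 in the light zone and at 0 in every middle and dense library, so only the sign of its change is given, which was lower.

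From middle to dense, 12 rows (8.57%) were lower and 1 higher, against 22.5% and 4.79% of all genes, and the median change was −0.12 against −0.28. The largest falls among the rows called were of Mir5133 (−3.50, limma adjusted p = 0.0127), in an exon of Glce, and Mir3098 (−2.55, adjusted p = 0.0123), in an exon of the mitochondrial ribosome gene Mrpl51. Both levels were high up to the middle fractions: Mir5133 had 110.1, 65.5, 14.96 and 52.1 TPM in fractions 10 to 13 of gradient 1, and 70.9, 22.4, 46.9 and 44.1 in gradient 2. Its dense fractions held 6.01, 32.96, 0 and 0, and 33.98, 0, 9.32 and 0. The single rise was Mir20a, which rests on 1 library in each gradient and was tested only through the dense zone.

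The center of sedimentation, the mean fraction number weighted by TPM over the 17 shared fractions, was computed for the 97 rows with a mean of at least 1 TPM in each gradient. A row could reach that mean through the few fractions where it was high, which then set its center, so the centers are a description, with no test and no difference from other genes read from them. The median center was fraction 8.62 in gradient 1 and 8.29 in gradient 2, where all 11371 genes under the same limit had 11.3 in each. In both gradients the center lay below fraction 10 for 58 of the 97 rows (59.8%) and 22.4% of all genes. It lay above fraction 12 in both for 3873 of the 11371 genes and for 7 rows: Mir3113, Mir1932, Mir3960, Mir6397, Mir7011, Mir93 and Mir1981. The highest fraction was among 4 to 7 for 52 rows in gradient 1 and 57 in gradient 2, and among 16 to 21 for 16 and 8. Of the 11371 genes, 4748 and 4484 had it among 4 to 7, and 2674 and 2031 among 16 to 21. A single fraction held a median of 48.2% and 50.3% of a row's summed TPM, against 11.1% and 10.8% over all genes, and the centers of such rows rest on few libraries.

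Pearson's R between the gradients over the 17 fractions had a median of 0.0103 over the 97 rows and 0.904 over all genes, and 47 rows had a negative R. Fractions of a gradient are not independent, so R is a description here. The centers lay within 1 fraction of each other for 31 rows (32.0%) and 85.6% of all genes, and more than 3 fractions apart for 23 rows. Agreement went with the level: the median R was −0.0625 for 14 rows with a mean of 1 to 2 TPM, −0.0017 for 42 of 2 to 5, 0.00787 for 19 of 5 to 10 and 0.448 for 22 of 10 or more. In the same ranges of TPM all genes had 0.696, 0.780, 0.860 and 0.934. A hairpin row reaches a given TPM with fewer fragments than a longer gene, and a row above 0 in 1 fraction of each gradient, not the same one, has an R of −0.0625 by construction, so no difference from other genes is read from these values. The 13 rows above 0 in at least 9 fractions of each gradient had a median R of 0.673, none of them negative.

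Agreement was highest for Mir6516 (R = 0.973, rho = 0.747, centers at fractions 5.41 and 4.56), Mir3473f (R = 0.894), Mir8112 (R = 0.878, centers 8.24 and 8.29) and Mir568 (R = 0.862, centers 8.92 and 8.74) among the rows with a mean of at least 10 TPM. Mir703, above 0 in 7 libraries of gradient 1 and 12 of gradient 2, had an R of 0.803. The other 6 rows with R over 0.8 were above 0 in at most 5 libraries of each gradient, as Mir3075, whose R of 1 comes from fraction 6 being the single library above 0 in both gradients. Mir3113 had centers of 15.5 and 14.2 and an R of 0.424, with its highest shared fraction at 17 in gradient 1 and at 14 in gradient 2. Mir1932 (13.8 TPM, R = −0.215) and Mir3960 (13.4 TPM, R = −0.194) peaked in fraction 21 of gradient 1 but in fractions 16 and 8 of gradient 2. Mir690 (13.2 TPM, R = −0.112) had its center at 5.73 and 8.86, and Mir5098 (19.7 TPM, R = −0.0166) at 9.07 and 6.08.

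**Figure D4:**
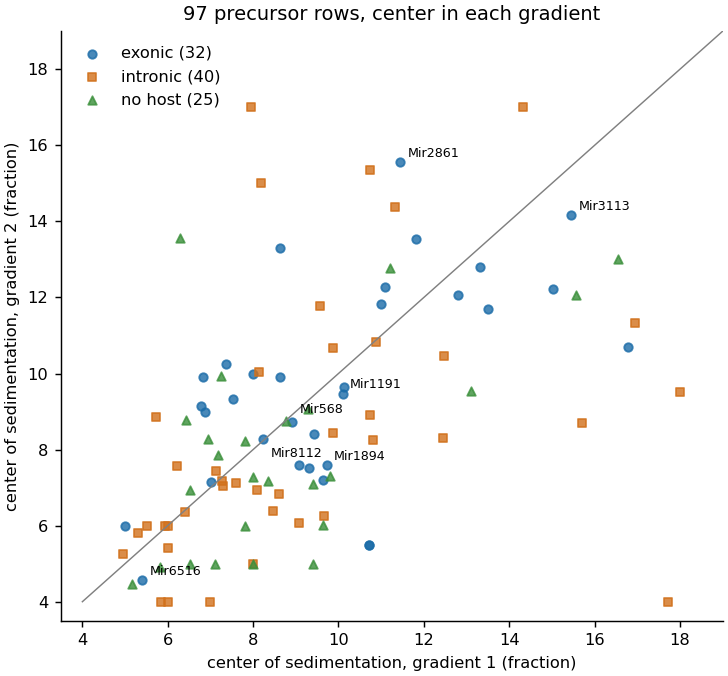
Center of sedimentation (TPM-weighted mean fraction, 17 shared fractions) of 97 precursor rows in gradient 1 (x axis) and gradient 2 (y axis), by position in a host gene: 32 exonic, 40 intronic and 25 without a host. The line marks equal centers, 58 points lie below fraction 10 on both axes, and 31 lie within 1 fraction of equal.

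Each row was then set beside its host gene. For 55 rows, 22 exonic and 33 intronic, row and host both had a mean of at least 1 TPM in each gradient. The centers of such rows rest on the few fractions through which many of them reached that mean, so the differences from the hosts over all pairs are a description and were not tested. The center of the row minus that of its host had a median of −2.19 fractions in gradient 1 and −2.14 in gradient 2, and it was below 0 in both gradients for 35 of the 55 pairs and above 0 in both for 9. The median over both gradients was −2.25 fractions for exonic and −2.52 for intronic rows. Pearson's R between row and host over 17 fractions had a median of 0.0495 in gradient 1 and 0.0741 in gradient 2. Mir8112 with Krcc1 and Mir1192 with Klf9 were among the pairs with an R over 0.5 in both gradients. The row was above its host in mean TPM in 8 of the 55 pairs, all exonic, and the median ratio was 0.161. TPM of a row this short depends on the effective length used in the division, which is not given in the sources used here, so the level of a row and that of its host are not on a sure common scale.

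Mir8112 followed Krcc1, at R = 0.904 and 0.894 in gradients 1 and 2. Krcc1 had 97.01, 81.4, 77.2 and 100.2 TPM in fractions 4 to 7 of gradient 1 and 16.1, 9.19, 12.4 and 14.8 in fractions 16 to 19, and changed by −2.80 (SE 0.35, limma adjusted p = 0.00131) where Mir8112 changed by −3.60. Mir1192 also lay with Klf9 in the light fractions (R = 0.741 and 0.710), though its center of 4.95 and 5.26 was far lighter than the 10.7 and 10.4 of Klf9.

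Other rows went apart from their hosts. Zbtb20 rose from light to dense by 0.80 (SE 0.18, limma adjusted p = 0.0105), where Mir568 in its exon was lower, and their R was −0.550 and −0.394. G3bp1 rose by 1.40 (adjusted p = 0.00309) while Mir7652 changed by −3.01 (adjusted p = 0.00269). Rest, a repressor of neuronal genes, rose by 0.97 (adjusted p = 0.0165) and the intronic Mir5098 changed by −4.08 (adjusted p = 0.0440, but 0.0603 after quantile normalization and 0.0656 with zones of fractions 4 to 6 and 17 to 19). The difference between a row and its host was not itself tested. Ddx5, the gene of a helicase that helps Drosha, was centered at fraction 14.2 and 13.9, and its exonic row Mir3064 at 7.53 and 9.32. Mir3064 did not pass the test (−2.80, limma adjusted p = 0.0861) unless the gradient was a block (adjusted p = 0.00901).

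Mir6516 and Snhg20 were centered in different fractions. Snhg20 averaged 2.26 TPM, its center was at fraction 9.47 in gradient 1 and 10.8 in gradient 2, and its change did not pass the test (−0.48, limma adjusted p = 0.130). Mir6516 averaged 355 TPM. Huwe1 averaged 72.1 TPM with a rise of 0.54 (adjusted p = 0.0412), and Mir3113 was centered 3.01 and 1.81 fractions denser than it in gradients 1 and 2. Cdk9, host of Mir2861 and Mir3960, was centered at 13.6 and 13.2 and rose by 1.18 (adjusted p = 0.0321).

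**Figure D5:**
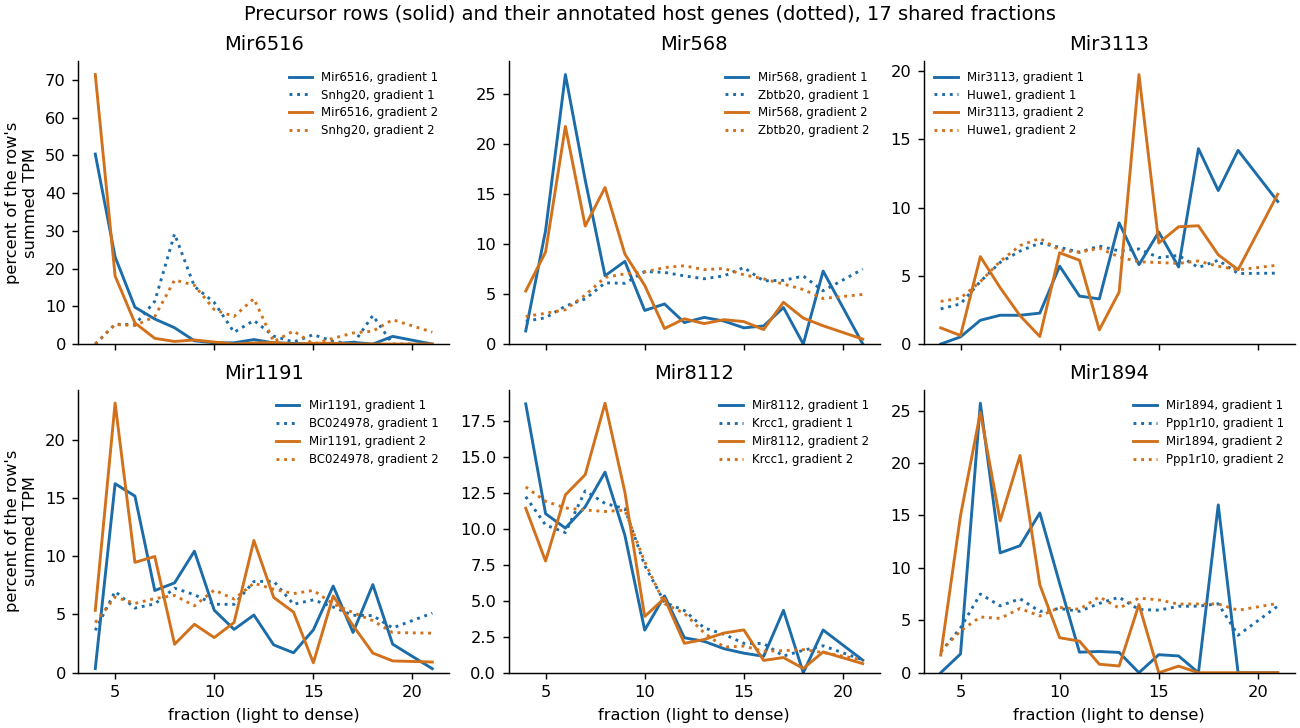
Share of a row's summed TPM in each of the 17 shared fractions (y axis, percent) by fraction from light to dense, for the 6 precursor rows of highest mean (solid lines) and their host genes (dotted lines) in gradient 1 (blue) and gradient 2 (orange). Mir8112 runs with Krcc1, whereas Mir6516 and Mir568 peak in lighter fractions than their hosts and Mir3113 lies denser than Huwe1.

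Rows of the same locus often had different centers. Mir25, Mir93 and Mir106b lie within chr5:138165321-138165818 in Mcm7, the gene of a replication helicase subunit. Their centers were at 11, 13.3 and 8.48 in gradient 1, and 11.8, 12.8 and 6.38 in gradient 2. Mir18 and Mir20a of the Mir17hg locus were each above 0 in 1 library of each gradient, Mir18 in fractions 8 and 10 and Mir20a in fractions 16 and 18. Mirlet7d and Mirlet7f-1 were both light, with centers at 6.88 and 7.02 in gradient 1 and 9 and 7.14 in gradient 2. Mir192 and Mir215, which share a seed but not a locus, were centered at 13.1 and 8.62 in gradient 1, and at 9.54 and 13.3 in gradient 2. With 2 to 11 libraries above 0 over both gradients, these centers are imprecise.

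Precursor rows of well known liver microRNAs were above 0 in few libraries. Mir122 was in the table of gradient 1 only, with 5.02 TPM in fraction 5 and 31.7 in fraction 11. Mir192 was above 0 in 7 libraries of gradient 1, from 6.75 to 71.5 TPM, and in 4 of gradient 2, from 8.83 to 42.7. It was lower in the dense zone (−1.24, SE 0.32, limma adjusted p = 0.0171), although fraction 18 held its highest value in gradient 1, 71.5 TPM, and 23.9 TPM in gradient 2. Mir194-2, beside Mir192, was called lower (−1.40, limma adjusted p = 0.00917). It was above 0 in only 2 libraries of each gradient, so its change and call rest on those. Mir194-1 did not pass the test (−0.59, adjusted p = 0.299), nor did Mir101b (1.51, adjusted p = 0.0654), whose highest value was 94.5 TPM in fraction 17 of gradient 1. Of the let-7 rows, Mirlet7d, Mirlet7f-1 and Mirlet7g were in both tables. Mirlet7f-1 changed by −2.49 (adjusted p = 0.00264) and Mirlet7d by −2.30 (adjusted p = 0.186), and Mirlet7g was too low to test. Mirlet7c-1, Mirlet7e, Mir22 and Mir126a were in gradient 1 only, and Mirlet7a-1, Mirlet7a-2 and Mirlet7i in gradient 2 only. Mir21a, Mir148a, Mir30a, Mir26a-1, Mir223, Mir451a and Mir144 had no row among those analysed.

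A further 165 precursor rows were in 1 table only, 79 in gradient 1 and 86 in gradient 2. Of these, 55 and 56 were above 0 in a single library, and no row in more than 5. Their highest values had a median of 10.3 TPM in gradient 1 and 13.5 in gradient 2. The highest was Mir8109, with 169 TPM in fraction 21 of gradient 1 alone. These rows could not be compared between gradients.

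The mRNAs of the microRNA machinery were well measured. Of 31 symbols listed, 27 were in both tables and all 27 were tested. Tut4 and Tut7 are other names of Zcchc11 and Zcchc6, which are among the 27, and Lin28a and Lin28b had no row among those analysed. In the dense zone 11 were higher and 10 lower, against 22.3% higher and 39.6% lower of all genes, or 12 and 6 after quantile normalization. All 4 Argonaute genes, whose proteins hold the mature microRNA, were lower: Ago1 (−1.59), Ago2 (−1.67), Ago3 (−1.32) and Ago4 (−1.40), each with an adjusted p under 0.05 in limma. After quantile normalization these calls held, but the changes of Ago3 and Ago4 were smaller, at −0.69 and −0.71. Tnrc6a (−1.14) and Tnrc6b (−0.99), which join Argonaute to the mRNA decay machinery, and Dicer1 (−0.83) were lower too, but after quantile normalization the calls of Tnrc6a (adjusted p = 0.0595) and Dicer1 (adjusted p = 0.0647) were lost. The call of Dicer1 was also lost with the other zone borders (adjusted p = 0.0567) and with a dense zone of fractions 16 and 17 (adjusted p = 0.0581). Higher in the dense zone were Xpo5 (1.85, limma adjusted p = 0.000859), Mov10 (2.34), an RNA helicase, Dis3l2 (2.01), an exonuclease, and the chaperone Hsp90aa1 (2.19). Dgcr8 was called higher as well (0.80, adjusted p = 0.0435). Drosha (−0.25, adjusted p = 0.364) and Tnrc6c (−0.23, adjusted p = 0.369) did not pass the test in limma. The median R between gradients was 0.939 for these 27 genes.

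Other noncoding RNA rows were set beside the precursor rows, with 39.6% of all genes lower in the dense zone and a median change of −0.43 as background. All 9 nuclear RNAs tested, such as Malat1 (−4.11) and Rpph1, the RNA of RNase P (−6.17), were lower in the dense zone, with a median change of −4.11. Their summed TPM averaged 95761 in the light and 860 in the dense zone of gradient 1, and 72827 and 1122 in gradient 2. Most of the light sum was Rpph1 (83018 TPM in gradient 1 and 57159 in gradient 2) and Rmrp (11007 and 14025). Malat1 held 271 and 537 TPM there, so the sum mainly follows Rpph1 and Rmrp. The part of this fall in the results on precursor rows was not tested. Of 69 small nucleolar and Cajal body RNA rows, 41 were lower at an adjusted p under 0.05, with a median change of −1.83. Of 14 microRNA and snoRNA host rows, 12 were lower. Of the small nucleolar and Cajal body rows, 52 had a mean of at least 1 TPM in each gradient. Their median center was at fraction 7.54 in gradient 1 and 6.85 in gradient 2, and their median R was 0.550. Agreement went with the level among precursor rows, so no ranking against precursor rows or all genes is read from this R. The tissue label was checked against its markers: all 6 hepatocyte markers were in both tables, with a summed level from 7086 to 54891 TPM over the libraries of gradient 1. Of these 6, Alb (−2.59, limma adjusted p = 0.00267) and Serpina1a (−3.58, adjusted p = 0.000465) were lower and Cps1 (2.12, adjusted p = 0.00647) higher in the dense zone, and 3 did not pass the test. Markers of Kupffer, sinusoidal endothelial, stellate, erythroid and biliary cells were present at sums of at most 625 TPM in any library, with Col1a1, Epcam, Hbb-bs and Hbb-bt not among the rows analysed. All 5 Kupffer markers were present, at sums from 36.2 to 163 TPM in gradient 1 and 37.1 to 162 in gradient 2, and 4 were lower in the dense zone. Of the other markers tested, 3 of 3 stellate, 2 of 3 endothelial, 1 of 2 erythroid and 0 of 2 biliary ones were lower. Their part in the results on precursor rows was not tested.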

How the data were processed

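The authors made stranded, ribosomal RNA-depleted libraries from equal RNA mass, quantified them with Kallisto against an index of RefSeq transcripts (mm10), and deposited TPM values by gene symbol. The version of Kallisto and the summing of transcripts to symbols are not given in the sources used here, and the submitters' notes name bcl2fastq 2.16.0.10. Every row has a value over 1 in at least 1 fraction of its gradient, and no column was left unmatched. TPM holds no counts, so depth is unknown and precision rests on the 2 gradients, which came from separate mice per the series' design.

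Zone means of log2(TPM + 1) were compared with limma (trend in eBayes, all genes with a mean of at least 1 TPM, Benjamini-Hochberg adjustment, two-sided), tested on simulated data first. The scale understates changes of low rows. The gradients pair the zones, which come from 1 homogenate (deviations correlated at r = 0.665, 0.540 and 0.798 across genes), so the gradient as a block was an alternative. Others were the pseudocount (0.1), filters on mean TPM, quantile normalization, rescaling without the 50 most abundant genes, other zone borders, and each gradient alone. Hosts and coordinates came from GENCODE M21 (GRCm38), with any overlap of at least 1 base on the same strand, and sequences from RefSeq. Named rows are the 20 of highest mean, the 5 largest rises and falls called in each contrast, and a list of known liver microRNAs. Others are named where a count of 5 or fewer or a single case needed it, after their values were seen. Values in every library are given for the 6 highest rows. The members and lists were chosen with earlier results of these data known. Software was Python 3.11.15, pandas 2.3.3, R 4.3.3 and limma 3.58.1.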

Additional observations from a re-analysis of the deposited data

How the results depend on the processing

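Depth is unknown, and calls on rows above 0 in few libraries rest on those libraries. Quantile normalization moved the light-to-dense median of all genes from −0.43 to −0.05. The counts of rows called stayed within 1.5 times the main ones (73, 59 and 13) under most alternatives. With a mean of at least 10 TPM they were 18, 13 and 7 of 24 rows tested, fewer because fewer rows were tested. Among the 20 rows above 0 in at least 12 of 24 zone libraries they were 16, 11 and 7. Dense against middle gave 8 after quantile normalization and 5 with zones of fractions 4 to 6, 11 to 13 and 17 to 19, where the cause was not tested. With the gradient as a replicate block the counts were 84, 68 and 16. With a dense zone of fractions 16 and 17, chosen after seeing the data, they were 75, 59 and 10.

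The median light-to-dense change of −1.19 was −2.04 with a pseudocount of 0.1, −0.995 without a filter, −3.22 with a mean of at least 10 TPM, −1.06 after quantile normalization, −1.29 after rescaling, −1.43 with the other zone borders, −1.17 with the short dense zone and −2.90 for the 20 rows. Without either gradient it ran from −1.0877 to −1.0871. The median center of 8.41 was 9.29 on log2(TPM + 1) profiles, 8.16 for the 159 rows above 0 in each gradient and 8.77 for the 13 rows above 0 in at least 9 fractions. The median R of 0.0103 was 0.155 on the log scale, 0.642 for the 16 rows with a mean of at least 10 TPM in both gradients, 0.0124 after rescaling, 0.018 and 0.0548 with gradient 2 shifted by 1 fraction either way, and 0.673 for the 13 rows. It changed sign, to −0.0625, for the 159. The median difference from the host of −2.51 was −1.65 on the log scale, −2.64 without the filter, −3.90 at a mean of at least 10 TPM in both gradients, and ran from −2.19 to −2.14 without either gradient. Of the 28 named rows, 27 could be tested with the other zone borders (Mir20a then fell below 1 TPM) and 20 with a mean of at least 10 TPM, and they were not listed for the short dense zone. In the alternatives that gave a value the named rows kept their direction, except that Mir1932, Mir3960 and Mir1945, none of them called between these zones, had the other sign in 1 of the gradients. Calls were lost for Mir5098 under quantile normalization and for Mir5098, Mir2861 and Mir1981 with the other zone borders, and Mir3064 gained one under the block, which moved no count of calls by over 1.5 times.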
